A study of Mus musculus with 18 samples.

Results

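The genes described here are 48 general splicing factors of the mouse: 12 SR and SR-like proteins, 16 hnRNP proteins, 9 factors of the 3′ splice site and the U2 particle, 8 factors of the U1 particle, the U4/U6.U5 tri-snRNP and the Prp19 complex, and 3 further RNA binding proteins. They were chosen by name, though with earlier results of these data known. They were looked up by current symbol or older synonym among gene-level rows that carry 1 symbol. Of the 48, 39 had such a row, each exactly 1, out of 14847 genes named in this way in the table of 23332 rows. Srsf7, Tra2a, Hnrnpa1, Hnrnpa3, Hnrnpf, Hnrnpr, U2af1, Sf3a1 and Snrpa had none and are described from the exon-level table, in which 47 of the 48 had probe sets, 847 in all. The exception was Tra2b, which was measured at the gene level. A further 18 exon probe sets carried the old symbol Sfrs10, a synonym of both Srsf2 and Tra2b in the reference table, and were assigned to neither.

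The spliceosome removes introns from pre-mRNA. The U1 particle binds the 5′ splice site, SF1, U2AF and then the U2 particle bind the branch point and the 3′ splice site, and the U4/U6.U5 tri-snRNP joins them before the helicase SNRNP200 unwinds U4 from U6 and PRPF8 holds the catalytic centre. SR proteins bind exonic enhancers through RNA recognition domains and recruit these particles through tails rich in arginine and serine, whereas hnRNP proteins coat nascent RNA and often act at silencers. Many SR and hnRNP genes contain alternative exons that lead to decay of their own transcripts, so the level of a gene and the signal of its single exons can move apart.

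The cells were MEFs, fibroblasts cultured from mouse embryos, and carried 1 of 3 genotypes, labelled AGO2 -/-, Dicer -/- and wild-type. AGO2 is the Argonaute protein that binds small RNAs and can cut their targets, and Dicer cuts microRNA precursors to their mature form. Each genotype had 3 arrays of the Affymetrix Mouse Exon 1.0 ST type, which carry probe sets for single exons, and each of the 9 arrays appears as 2 samples, once with values per gene and once with values per exon probe set. All cells were cultured for 3 days with 7% serum to below confluence, and nothing else was added per the labels. The labels name a single line for each genotype. The AGO2 null line came from another source than the Dicer null and wild-type lines, so genotype and line cannot be told apart. The replicates are called biological or experimental without separate lines or animals, so p-values measure only how far these samples spread, and that spread may be technical. The same 3 wild-type samples served both comparisons with a null line, which are therefore not independent.

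Sample medians lay between 6.28 and 6.37 on the log2 scale at the gene level and between 6.93 and 7.10 at the exon level, and samples of 1 genotype correlated at 0.985 to 0.993 across rows against 0.957 to 0.972 between genotypes. The targeted genes followed the labels in all samples: Ago2 read 6.74, 6.92 and 6.65 in AGO2 null against 8.24, 8.20 and 8.24 in wild-type cells, and Dicer1 read 8.42, 8.35 and 8.35 in Dicer null against 9.17, 9.17 and 9.20. In the other null line each was above wild type. Ago2 read 9.23, 9.15 and 9.04 in Dicer null samples, a difference of 0.91 (limma adjusted p = 8.51e-05). Dicer1 read 9.40, 9.42 and 9.39 in AGO2 null samples, a difference of 0.23 (limma adjusted p = 0.00628). Of 12 fibroblast markers, 6 were higher and 1 lower in AGO2 null cells, while 1 was higher and 10 were lower in Dicer null cells. Their mean level ran from 8.02 to 8.10 in Dicer null and from 9.66 to 9.73 in wild-type samples, and it was higher in all AGO2 null samples, with 10.14 in the highest. Of 8 epithelial markers, 3 were higher in AGO2 null cells, led by the keratin Krt19 at 3.90, and 2 in Dicer null cells, led by Krt18 at 4.30, with none lower. Their mean level ran from 6.77 to 7.03 in AGO2 null and from 7.04 to 7.09 in Dicer null samples, whereas no wild-type sample was above 6.11. Of 5 neural markers, Stmn2 and Map2 were lower in both null lines, Stmn2 by -2.80 in AGO2 null and -2.82 in Dicer null cells. Dcx went the other way in Dicer null cells, higher by 1.22, and the median of the 5 was -0.04 in AGO2 null and -0.01 in Dicer null cells. These marker shifts run with genotype, and their part in the results below was not tested. In such bulk RNA, fewer cells of a type and less RNA per cell cannot be told apart.

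The 39 measured members changed little, with a few exceptions of up to 0.94 on the log2 scale. All 39 lay above the median level of the table, and their replicates were tight, with a median SD of 0.06 for AGO2 null samples, 0.03 for Dicer null samples and 0.07 for wild-type samples. In AGO2 null cells 6 members were higher than in wild type (15.4%, against 11.8% of all rows), 4 were lower (10.3%, against 9.17% of all rows) and 29 were not called, at a limma adjusted p under 0.05 over all rows. In Dicer null cells 11 were higher (28.2%, against 11.2% of all rows), 4 were lower (10.3%, against 15.7% of all rows) and 24 were not called. In AGO2 null against Dicer null cells 2 were higher (5.13%, against 16.9%), 8 were lower (20.5%, against 9.45%) and 29 were not called. The median difference of the 39 members was 0.12 in AGO2 null and 0.12 in Dicer null cells against wild type, beside medians of 0.02 and -0.01 over all rows.

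Bright rows are called more often than dim ones, so the members also have to be read against rows at or above the median level. Of those, 33.9% were called for AGO2 null cells, 43.8% for Dicer null cells and 42.6% for the comparison of the null lines, whereas 25.6%, 38.5% and 25.6% of the members were called. By direction, 20.3% of these bright rows were higher and 13.6% lower in AGO2 null cells, above the members' 15.4% and 10.3%. The shares in Dicer null cells were 18.4% higher and 25.4% lower, against 28.2% and 10.3% of the members. Between the null lines they were 28.6% higher and 14.0% lower, against 5.13% and 20.5% of the members. The balance of rises and falls depended on scaling. Quantile normalization turned the AGO2 null split from 6 higher and 4 lower to 2 higher and 6 lower, brought the members' median difference to 0.00 and left the Dicer null split at 11 and 4. Median centring gave 9 higher and 3 lower in AGO2 null cells and 20 higher and 1 lower in Dicer null cells. Between the null lines the split was 2 higher and 8 lower as deposited, 1 and 15 on quantile-normalized values and 1 and 11 on centred ones. The majority direction in AGO2 null cells thus changed with scaling, and the whole table moved too. Over all rows, AGO2 null cells had 2764 higher and 2139 lower as deposited, 2284 and 2721 on quantile-normalized values and 2986 and 1985 on centred ones. In the same order, Dicer null cells had 2605 and 3659, 3165 and 3209, and 3461 and 2866. Between the null lines the table gave 3935 and 2205, 3029 and 3343, and 3283 and 2796.

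**Figure D1:**
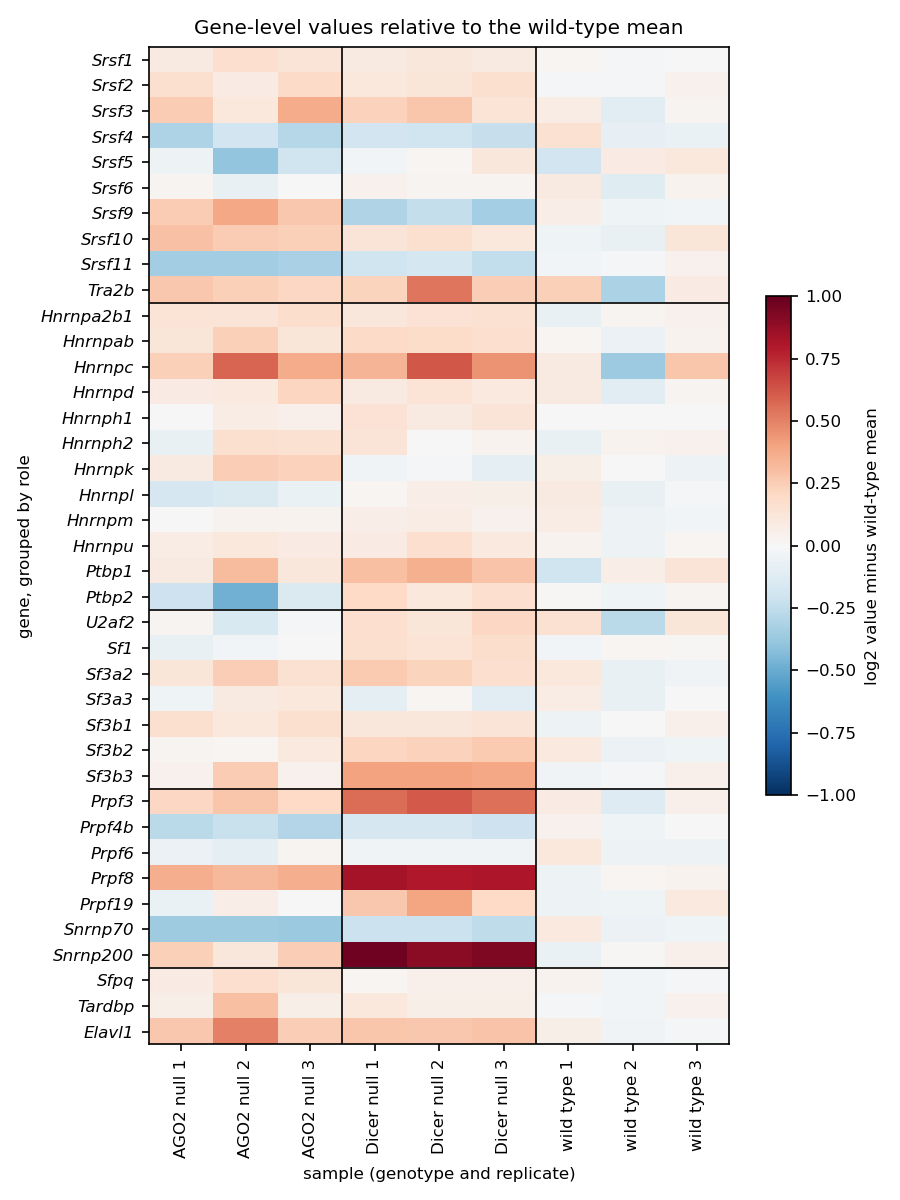
Gene-level log2 value of each of the 39 measured members (rows, grouped by role) in each of the 9 samples (columns), minus the mean of the 3 wild-type samples of that gene. Prpf8 and Snrnp200 stand out in the 3 Dicer null columns, most other rows are pale, and wild-type replicate 2 is low for Hnrnpc, Tra2b and U2af2.

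Factors of the U5 particle and the tri-snRNP held the 3 largest differences of members in Dicer null cells, those of Snrnp200, Prpf8 and Prpf3. PRPF8 is the large scaffold protein at the centre of the spliceosome. Prpf8 read 10.27, 10.23 and 10.27 in AGO2 null samples, 10.75, 10.71 and 10.72 in Dicer null samples and 9.86, 9.93 and 9.94 in wild-type samples. No samples of any 2 genotypes overlapped, with Dicer null the highest and wild type the lowest. The difference from wild type was 0.35 in AGO2 null cells (SE 0.04, limma adjusted p = 0.00095) and 0.82 in Dicer null cells (SE 0.04, adjusted p = 4.94e-06). The null lines themselves differed by -0.47 (AGO2 null minus Dicer null, adjusted p = 0.000155).

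Snrnp200, which encodes the U5 helicase that unwinds U4 from U6, read 9.58, 9.45 and 9.59 in AGO2 null, 10.31, 10.24 and 10.27 in Dicer null and 9.28, 9.35 and 9.39 in wild-type samples. The Dicer null samples stood far above all others, and the AGO2 null samples lay just above the wild type. The rise was 0.94 in Dicer null cells (SE 0.06, adjusted p = 1.06e-05), the largest difference from wild type among the 39 members, and 0.20 in AGO2 null cells (SE 0.06, adjusted p = 0.0419). The latter call was lost under 12 of 18 alternatives, quantile normalization among them, where the lowest difference over the alternatives was 0.09. The null lines differed by -0.74 (adjusted p = 6.46e-05).

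Prpf3, a U4/U6 protein, read 9.62, 9.70 and 9.62 in AGO2 null, 9.97, 10.03 and 9.96 in Dicer null and 9.49, 9.29 and 9.46 in wild-type samples. It followed the same order of genotypes without overlap. The rise was 0.57 in Dicer null cells (SE 0.06, adjusted p = 0.000335) and 0.23 in AGO2 null cells (SE 0.06, adjusted p = 0.0391), and the second was lost under 12 of 18 alternatives. Prpf19, the ubiquitin ligase that names the Prp19 complex, read 7.99, 8.13 and 8.06 in AGO2 null, 8.33, 8.46 and 8.26 in Dicer null and 8.01, 8.02 and 8.16 in wild-type samples. AGO2 null and wild-type samples overlapped fully, and all Dicer null samples lay above both. Prpf19 was 0.29 higher in Dicer null cells (SE 0.07, adjusted p = 0.0206), a call lost on leaving out Dicer null replicate 1 or 2 or wild-type replicate 1 or 2. Not all tri-snRNP genes moved: Prpf6, whose protein bridges U5 and U4/U6, differed by -0.04 and -0.03, and Eftud2, the U5 GTPase that is no member and was looked up after the values of its partners had been seen, by -0.02 and 0.00 (adjusted p = 0.803 and 0.97).

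Against these rises stood falls of the U1 gene Snrnp70 and the kinase gene Prpf4b. SNRNP70 is the U1 protein through which SR proteins reach the 5′ splice site. Snrnp70 read 9.69, 9.69 and 9.67 in AGO2 null, 9.83, 9.83 and 9.80 in Dicer null and 10.15, 9.99 and 10.01 in wild-type samples, so both null lines lay below all wild-type samples. The difference was -0.36 in AGO2 null cells (SE 0.05, adjusted p = 0.00235) and -0.23 in Dicer null cells (SE 0.05, adjusted p = 0.0145). The Dicer null call was lost after median centring and without Dicer null replicate 3.

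PRPF4B is a kinase that phosphorylates tri-snRNP proteins. Prpf4b read 9.57, 9.61 and 9.54 in AGO2 null, 9.66, 9.66 and 9.62 in Dicer null and 9.88, 9.79 and 9.83 in wild-type samples, again with both null lines below all wild-type samples. The falls were -0.26 (SE 0.04, adjusted p = 0.00461) and -0.18 (SE 0.04, adjusted p = 0.0165), and the second was lost under 4 of 18 alternatives. Of the 7 measured genes of this group, 3 were higher (42.9%) and 2 lower (28.6%) in AGO2 null cells. All rows gave 11.8% and 9.17% there, and bright rows 20.3% and 13.6%. In Dicer null cells 4 were higher (57.1%) and 2 lower (28.6%), against 11.2% and 15.7% of all rows and 18.4% and 25.4% of bright rows. On quantile-normalized values the AGO2 null counts were 1 higher and 2 lower, and on centred values the Dicer null counts were 4 and 0.

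**Figure D2:**
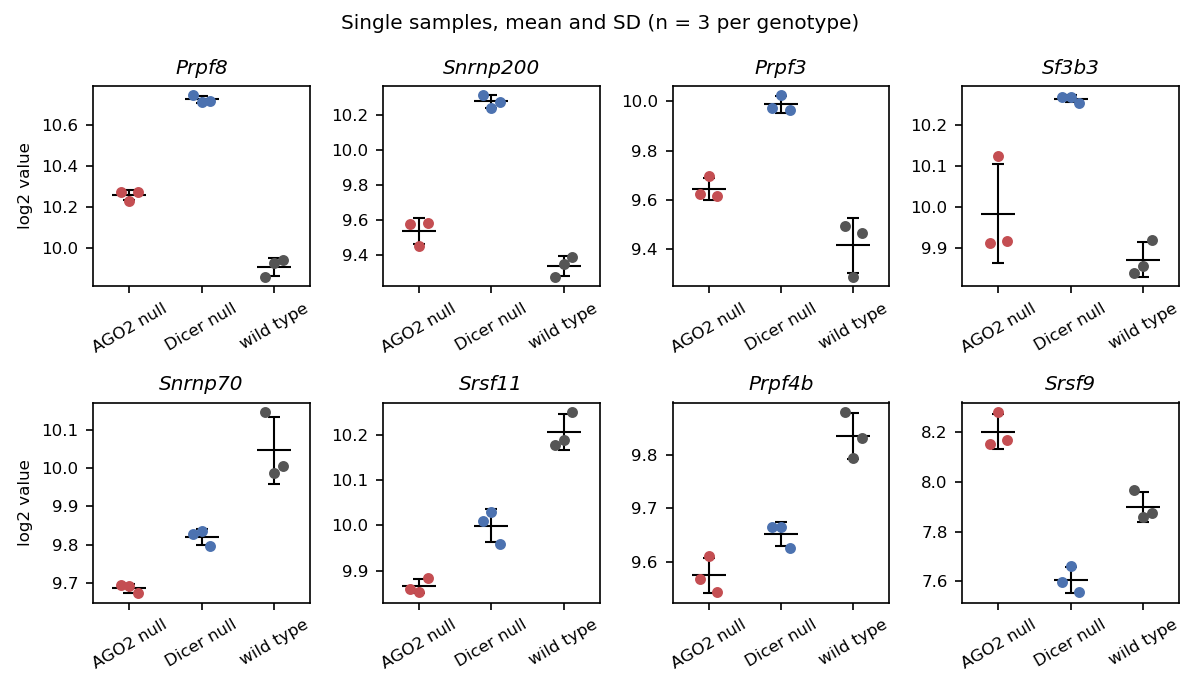
Gene-level log2 values of 8 members in single samples (points), with the mean (horizontal line) and SD (bars, n = 3 per genotype); each panel has its own vertical axis. Dicer null samples are highest for Prpf8, Snrnp200, Prpf3 and Sf3b3, wild-type samples are highest for Snrnp70, Srsf11 and Prpf4b, and Srsf9 is highest in AGO2 null and lowest in Dicer null samples.

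Promoters are printed for Prpf8 and Snrnp200, which had the largest rises in Dicer null cells, and for Snrnp70, which had the largest fall in AGO2 null cells. Each is the stretch from 250 bases before to 50 bases after the annotated start, on the strand of the gene, from RefSeq on build GRCm38.p6. The Prpf8 window is chr11:75486527-75486826 on the plus strand, the Snrnp200 window chr2:127208136-127208435 on the plus strand and the Snrnp70 window chr7:45395693-45395992 on the minus strand. Capitals mark matches, on either strand, to the CCAAT box, the GC box (GGGCGG), the core of the ETS factor site (CCGGAAG) and the core of the NRF1 site (CGCATGCG).
Prpf8: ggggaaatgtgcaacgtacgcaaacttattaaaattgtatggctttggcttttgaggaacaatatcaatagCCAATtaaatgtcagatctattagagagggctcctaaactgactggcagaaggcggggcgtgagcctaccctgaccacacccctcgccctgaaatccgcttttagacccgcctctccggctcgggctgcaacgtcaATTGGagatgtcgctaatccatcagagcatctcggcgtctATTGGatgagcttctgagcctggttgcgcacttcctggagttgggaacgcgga
Snrnp200: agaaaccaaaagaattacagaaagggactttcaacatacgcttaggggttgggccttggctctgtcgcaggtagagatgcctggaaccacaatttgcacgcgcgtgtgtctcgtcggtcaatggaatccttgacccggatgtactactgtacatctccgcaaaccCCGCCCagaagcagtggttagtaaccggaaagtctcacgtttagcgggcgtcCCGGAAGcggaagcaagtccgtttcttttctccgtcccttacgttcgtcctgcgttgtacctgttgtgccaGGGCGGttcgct
Snrnp70: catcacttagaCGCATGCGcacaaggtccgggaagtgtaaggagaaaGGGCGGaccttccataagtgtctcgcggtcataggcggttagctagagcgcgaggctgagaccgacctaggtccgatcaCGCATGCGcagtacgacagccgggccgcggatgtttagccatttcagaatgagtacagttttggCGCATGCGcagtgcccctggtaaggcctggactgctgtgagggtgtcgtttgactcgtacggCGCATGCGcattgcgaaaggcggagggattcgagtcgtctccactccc
The Prpf8 window held 3 CCAAT boxes and none of the others, the Snrnp200 window held 1 ETS core and 2 GC boxes, and the Snrnp70 window held 1 GC box and 4 NRF1 cores. Among the 47 members with a window, 34 (72.3%) held a GC box, 25 (53.2%) a CCAAT box, 16 (34.0%) an ETS core and 5 (10.6%) an NRF1 core. Over all 27025 genes with a window the shares were 38.2%, 41.1%, 9.93% and 2.07%. No motif contains another, and they were chosen with the results known, the NRF1 core after the Snrnp70 window had been read. A match is a description of letters, and the difference in shares was not tested.

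Of 7 measured branch point and U2 genes, 4 were higher in Dicer null cells (57.1%, against 11.2% of all and 18.4% of bright rows). None was lower there, against 15.7% and 25.4%. In AGO2 null cells none was called by limma (2 at an unadjusted p under 0.05), where 21.0% of all and 33.9% of bright rows were. The Dicer null counts were 4 and 0 on quantile-normalized and 5 and 0 on centred values, whereas the group's median in AGO2 null cells changed sign, from 0.05 as deposited to -0.06 on quantile-normalized values. Sf3b3, a subunit of the SF3B complex that anchors U2 at the branch point, read 9.91, 10.12 and 9.92 in AGO2 null, 10.27, 10.27 and 10.25 in Dicer null and 9.84, 9.86 and 9.92 in wild-type samples. The Dicer null samples lay above all others, and the other groups overlapped. The difference from wild type was 0.40 in Dicer null cells (SE 0.07, adjusted p = 0.00267) and 0.11 in AGO2 null cells (adjusted p = 0.288). The difference between the null lines, -0.28, was itself called (adjusted p = 0.0149), but not without AGO2 null replicate 3, without Dicer null replicate 1 or 2, or by exon medians (adjusted p up to 0.101).

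Smaller rises in Dicer null cells were those of Sf3b2 (0.24, adjusted p = 0.0153), Sf3a2 (0.22, adjusted p = 0.0406) and the branch point binding protein gene Sf1 (0.16, adjusted p = 0.0282). For Sf3b2 and Sf1 the null lines also differed from each other, each by -0.19 (adjusted p = 0.0423 and 0.0132). The Dicer null calls were lost under 2 (Sf3b2), 9 (Sf3a2) and 6 (Sf1) of 18 alternatives. Sf3a2 was 0.17 above wild type in AGO2 null cells as well, without a call. Sf3b1, the branch point clamp of U2, stood 0.14 and 0.12 above wild type (adjusted p = 0.0646 and 0.0914), with all samples of both null lines above all wild-type samples. Sf3a3 differed by 0.05 and -0.06. U2af2, the subunit that binds the polypyrimidine tract, differed by -0.05 and 0.17 around a wild-type replicate 2 that read 7.48 against 7.90 and 7.87 in the others.

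**Figure D3:**
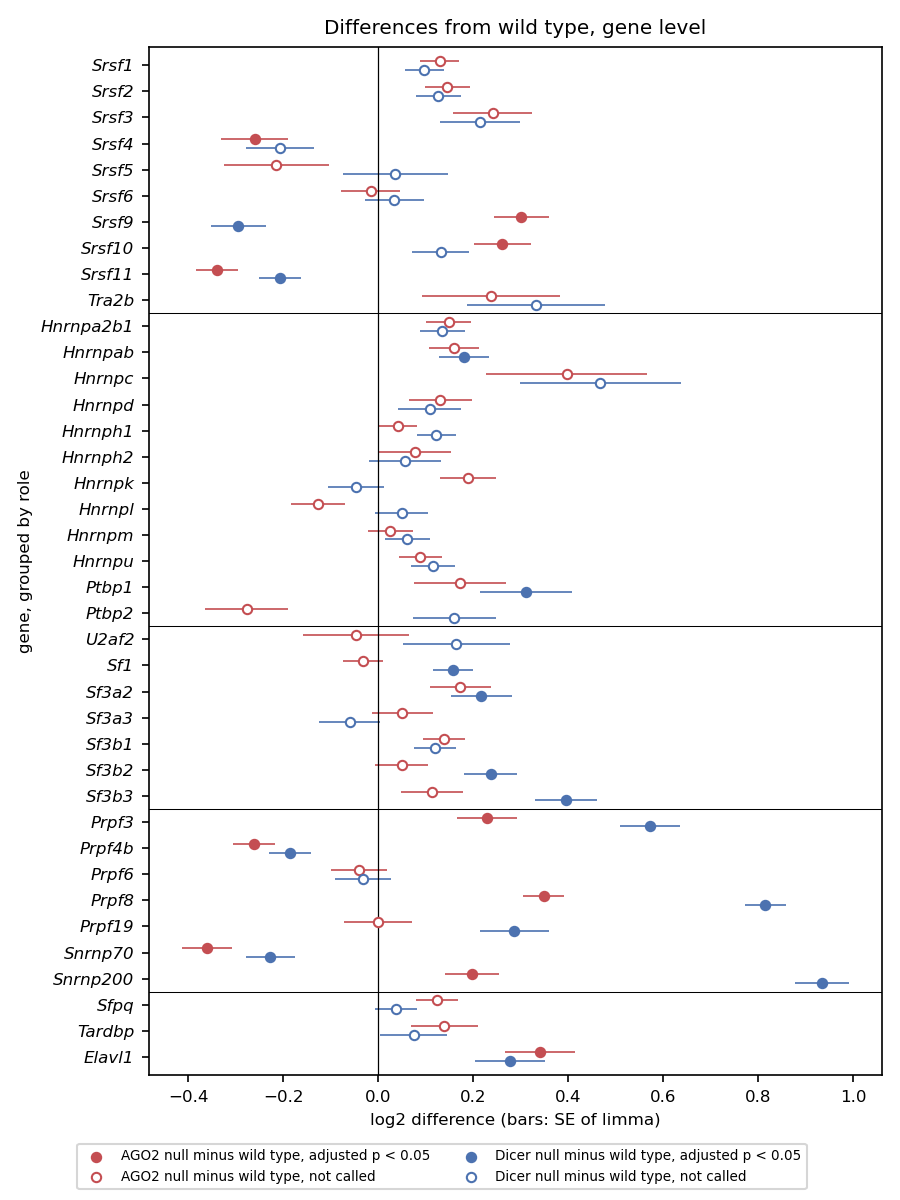
Log2 difference from wild type of the 39 measured members in AGO2 null (red) and Dicer null cells (blue), with the SE of limma as bars; filled points passed an adjusted p under 0.05. Snrnp200 at 0.94 and Prpf8 at 0.82 lie furthest right, both in Dicer null cells, and Snrnp70 at -0.36 in AGO2 null cells lies furthest left.

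SR proteins were split. Of 10 measured in AGO2 null cells, 2 were higher (20%, against 11.8% of all and 20.3% of bright rows). Another 2 were lower there (20%, against 9.17% and 13.6%). In Dicer null cells none was higher, against 11.2% and 18.4%, and 2 were lower (20%, against 15.7% and 25.4%). These counts moved with scaling, to 1 and 2 on quantile-normalized and 2 and 1 on centred values in AGO2 null cells, and to 1 and 2 and to 4 and 1 in Dicer null cells. Srsf9, a compact SR protein that binds purine-rich enhancers, read 8.15, 8.28 and 8.17 in AGO2 null, 7.60, 7.66 and 7.56 in Dicer null and 7.97, 7.86 and 7.87 in wild-type samples. Wild-type samples lay between the null lines without overlap. Srsf9 was the 1 member called in opposite directions, 0.30 higher in AGO2 null cells (SE 0.06, adjusted p = 0.00828) and 0.29 lower in Dicer null cells (-0.29, SE 0.06, adjusted p = 0.00659), and the null lines differed by 0.60 (adjusted p = 0.000219). Only the medians of exon probe sets, among 18 alternatives, ended the first 2 calls.

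Srsf11, a U1-associated SR-related protein, read 9.86, 9.85 and 9.88 in AGO2 null, 10.01, 10.03 and 9.96 in Dicer null and 10.18, 10.19 and 10.25 in wild-type samples. The 3 genotypes did not overlap. It fell by 0.34 in AGO2 null cells (SE 0.04, adjusted p = 0.00122) and by 0.21 in Dicer null cells (SE 0.04, adjusted p = 0.00911), the second call being lost after median centring and as the median of exon probe sets.

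Srsf10, a splicing repressor when dephosphorylated, read 10.04, 10.01 and 9.99 in AGO2 null, 9.88, 9.91 and 9.86 in Dicer null and 9.71, 9.68 and 9.87 in wild-type samples. It was 0.26 higher in AGO2 null cells (SE 0.06, adjusted p = 0.0178) with all AGO2 null samples above all others, a call lost under 6 of 18 alternatives. Srsf4, one of the long SR proteins, read 9.27, 9.39 and 9.29 in AGO2 null, 9.39, 9.38 and 9.34 in Dicer null and 9.72, 9.49 and 9.51 in wild-type samples. It was lower in AGO2 null cells at -0.26 (SE 0.07, adjusted p = 0.037), with wild-type replicate 1 the furthest away, and that call was lost under 11 of 18 alternatives.

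The remaining SR genes were not called at the gene level. Srsf1, Srsf2 and Srsf3, the classical SR proteins, stood 0.13, 0.15 and 0.24 above wild type in AGO2 null cells (adjusted p from 0.0621 to 0.0846) and 0.10, 0.13 and 0.21 above it in Dicer null cells, with no overlap between null and wild-type samples. By the median of its exon probe sets, Srsf2 was called higher in AGO2 null cells at 0.40 (limma on gene medians, adjusted p = 0.0158). It was also called higher in Dicer null cells, at 0.32 (adjusted p = 0.0318). By that measure 21.3% and 29% of genes were called in either direction. Of its 9 probe sets, 2 were called higher and 1 lower in AGO2 null cells, and none in Dicer null cells. Srsf6 differed by -0.02 and 0.03. Srsf5 differed by -0.21 and 0.04, and Tra2b, an activator of exons with purine-rich enhancers, by 0.24 and 0.33 around a low wild-type replicate 2 at 6.61. The unassigned Sfrs10 probe sets had a median of 10.11, 10.22 and 10.10 in AGO2 null against 9.68, 9.76 and 9.85 in wild-type samples, a difference of 0.38 (limma on gene medians, adjusted p = 0.0126).

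Srsf7 had no gene-level row with a single symbol. Its median over 16 exon probe sets was 10.05, 9.78 and 9.84 in AGO2 null, 10.56, 10.56 and 10.53 in Dicer null and 10.26, 10.40 and 10.50 in wild-type samples. The AGO2 null samples lay below all others, at -0.50 against wild type (SE 0.10, limma on gene medians, adjusted p = 0.00708, where 21.3% of 16358 genes were called in either direction). They lay -0.66 from Dicer null (adjusted p = 0.00102, where 27.4% were called). That value describes a part of the gene only: 4 probe sets were called lower and 1 higher in AGO2 null cells, differences ran from -0.98 to 0.68, and their median was -0.03. Tra2a differed by 0.03 and 0.10 as a median and was not called.

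Of 12 measured hnRNP genes, none was called by limma in AGO2 null against wild-type cells (5 at an unadjusted p under 0.05). Of the 12 differences 10 were above 0. The share of all rows above 0 was not counted, and their median was 0.02. In Dicer null cells 2 were higher (16.7%, against 11.2% of all and 18.4% of bright rows) and none lower, against 15.7% and 25.4%. Scaling turned the AGO2 null direction, with 2 lower and none higher on quantile-normalized values and 2 higher and none lower on centred ones, and in Dicer null cells it gave 1 and 6 higher, with none lower. Ptbp1, the polypyrimidine tract binding repressor of neuronal and muscle exons, read 9.20, 9.43 and 9.22 in AGO2 null, 9.41, 9.46 and 9.40 in Dicer null and 8.92, 9.18 and 9.24 in wild-type samples. Dicer null samples lay above the wild type by 0.31 (SE 0.10, adjusted p = 0.0493), with wild-type replicate 1 the lowest, and the call was lost under 9 of 18 alternatives. Hnrnpab was 0.18 higher in Dicer null cells (adjusted p = 0.0358) and 0.16 above wild type in AGO2 null cells (adjusted p = 0.0688), and its call was lost under 8 of 18 alternatives, among them leaving out any one Dicer null or wild-type sample.

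Ptbp2, the neuronal paralogue of Ptbp1, read 8.85, 8.57 and 8.91 in AGO2 null, 9.25, 9.16 and 9.22 in Dicer null and 9.06, 9.01 and 9.08 in wild-type samples. Wild-type samples lay between the null lines. Neither difference from wild type was called (-0.28, adjusted p = 0.0622, and 0.16, adjusted p = 0.249), but that between the null lines was, at -0.44 (SE 0.09, adjusted p = 0.00782). Hnrnpk, a protein that binds cytidine-rich RNA, read 10.88, 11.03 and 11.02 in AGO2 null, 10.75, 10.77 and 10.69 in Dicer null and 10.84, 10.78 and 10.73 in wild-type samples. The AGO2 null samples lay above all others, and the null lines differed by 0.24 (SE 0.06, adjusted p = 0.0206), a call lost under 7 of 18 alternatives.

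Hnrnpc, whose protein coats nascent transcripts at uridine tracts, had the widest spread of the group, with wild-type samples at 9.05, 8.60 and 9.24. Its differences of 0.40 and 0.47 were not called (adjusted p = 0.154 and 0.0841). The others, Hnrnpa2b1, Hnrnpd, Hnrnph1, Hnrnph2, Hnrnpl, Hnrnpm and Hnrnpu, differed from wild type by between -0.13 (Hnrnpl in AGO2 null cells) and 0.15 (Hnrnpa2b1 in AGO2 null cells).

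Of the members seen at the exon level alone, Hnrnpf, which binds guanine runs, had a median of 11.11, 11.08 and 11.25 in AGO2 null, 10.72, 10.91 and 10.90 in Dicer null and 10.76, 10.81 and 10.87 in wild-type samples. AGO2 null samples lay above all others, by 0.33 from wild type (SE 0.10, adjusted p = 0.0341) and by 0.30 from Dicer null (adjusted p = 0.0415). U2af1, the subunit that reads the AG of the 3′ splice site, had a median of 8.78, 8.86 and 9.03 in AGO2 null, 8.65, 8.80 and 8.81 in Dicer null and 8.60, 8.26 and 8.61 in wild-type samples. It was 0.40 higher in AGO2 null cells (SE 0.12, adjusted p = 0.0445).

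Sf3a1 stood 0.36 above wild type in AGO2 null cells without a call (adjusted p = 0.0668), and Hnrnpr stood 0.24 below it (-0.24, adjusted p = 0.105). None of the 9 genes was called in Dicer null against wild-type cells by this measure, where 29% of genes were called. Hnrnpa1, with 1 probe set, Hnrnpa3 and Snrpa were not called in any comparison. Hnrnpa1 and Hnrnpa3 have near-identical copies elsewhere in the genome, and how the probes treat these was not tested.

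Elavl1, the stabiliser of AU-rich mRNAs also known as HuR, was higher in both lines. It read 10.31, 10.55 and 10.29 in AGO2 null, 10.32, 10.31 and 10.33 in Dicer null and 10.10, 10.01 and 10.03 in wild-type samples. All null samples lay above all wild-type samples, by 0.34 (SE 0.07, adjusted p = 0.0143) and 0.28 (SE 0.07, adjusted p = 0.0262). The AGO2 null call was lost after quantile normalization and in a fit of the 6 samples alone, and the Dicer null call under 7 of 18 alternatives, among them leaving out any one Dicer null sample. Sfpq stood 0.12 and 0.04 above wild type and Tardbp, the gene of TDP-43, 0.14 and 0.08, with no call.

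Hnrnpab, Ptbp1, Sf1, Sf3a2, Sf3b2, Sf3b3 and Prpf19 were called against wild type in Dicer null cells and not in AGO2 null cells. Of these 7, the difference between the null lines was itself called for Sf1, Sf3b2, Sf3b3 and Prpf19. These between-line calls were lost under 1 (Sf1), 9 (Sf3b2), 4 (Sf3b3) and 5 (Prpf19) of 18 alternatives. For Sf1 the loss came without Dicer null replicate 3, for Prpf19 without AGO2 null replicate 1 or 3, without Dicer null replicate 1 or 2 and by exon medians, and for Sf3b2 without any one null sample, among others. Srsf10 and Srsf4 were called in AGO2 null cells and not in Dicer null cells, and for neither was the difference between the null lines called.

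Exon probe sets of the members gave the same picture for the leading genes and a more mixed one within others. They come from the same arrays as the gene-level values, so they are no independent check of them. Over the 847 probe sets, 61 were higher (7.20%, against 9.07% of 229581 probe sets) and 42 lower (4.96%, against 6.35%) in AGO2 null cells. After quantile normalization these were 41 and 53. In Dicer null cells 152 were higher (17.9%, against 8.93%) and 10 lower (1.18%, against 12.2%). Between the null lines 14 were higher in AGO2 null (1.65%, against 12.6%) and 118 lower (13.9%, against 6.08%). The Dicer null count rests largely on the genes Prpf8 and Snrnp200: the 750 probe sets of the other members held 57 of the 152 (7.6%) and, between the null lines, 36 of the 118 (4.8%).

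Prpf8 was higher in Dicer null cells at 46 of its 47 probe sets, with differences from 0.31 to 1.43 and a median of 0.85. In AGO2 null cells 18 of the 47 were called and all 47 lay above 0, with a median of 0.37. Snrnp200 was higher in Dicer null cells at 49 of 50 probe sets, from 0.51 to 1.44 with a median of 0.95, and at 3 of 50 in AGO2 null cells, with a median of 0.17. Nearly every probe set of both genes was thus higher in Dicer null cells. Sf3b3 was called at 15 and Prpf3 at 13 of 29 and 18 probe sets in Dicer null cells, and every probe set of either gene lay above 0 there.

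The falls were less even. Snrnp70 was lower at 10 of 23 probe sets in AGO2 null cells and at 7 in Dicer null cells, with differences from -1.39 to 0.17 and from -1.27 to 0.34 around medians of -0.31 and -0.27. Prpf4b was lower at 7 and higher at 1 of 32 probe sets in AGO2 null cells, and lower at 3 in Dicer null cells. The probe set that rose differed by 1.74, and was among the dim ones left out of the index described next. Srsf11 lay below wild type at all 12 of its probe sets in both null lines, of which 3 were called in AGO2 null cells and none in Dicer null cells.

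**Figure D4:**
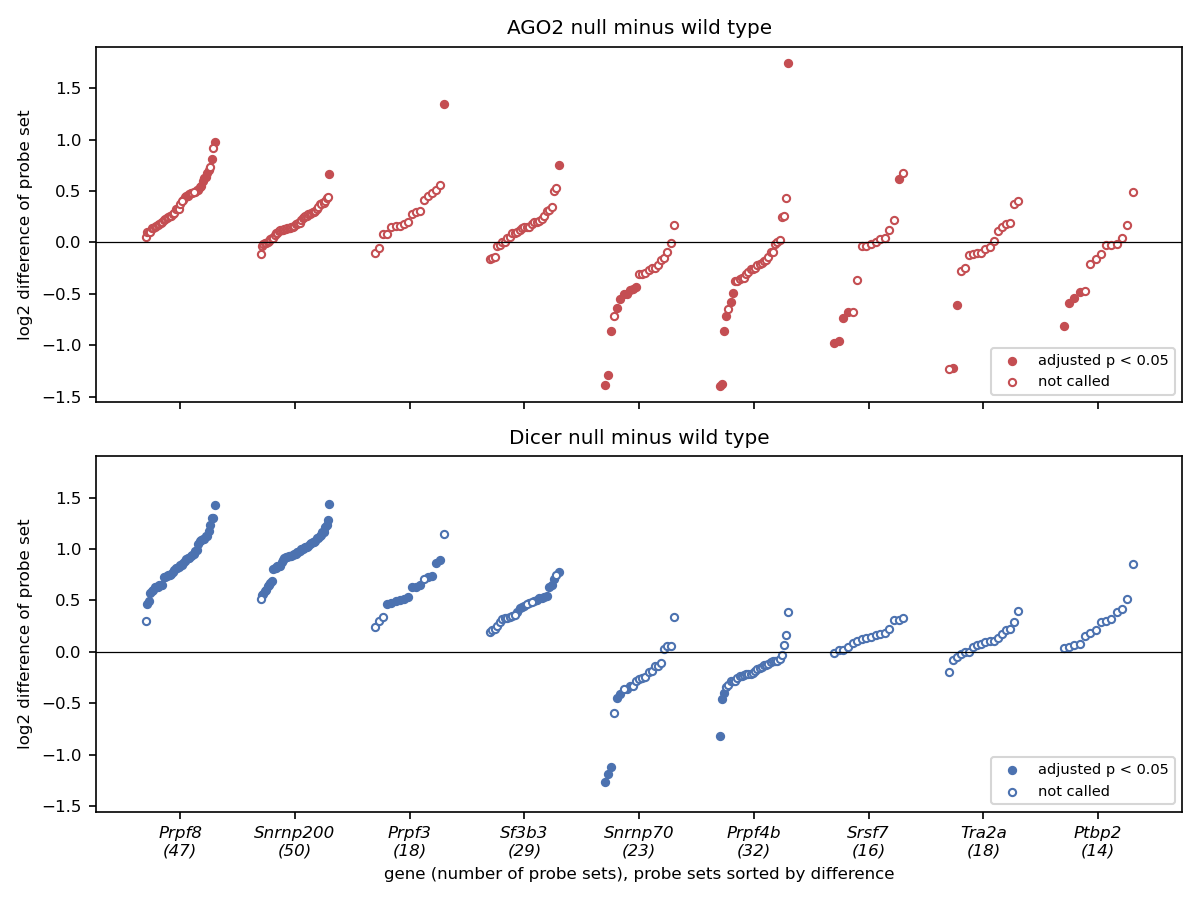
Log2 difference from wild type of each exon probe set of 9 members, sorted within a gene, in AGO2 null cells (upper panel) and Dicer null cells (lower panel); filled points passed an adjusted p under 0.05, and numbers under the genes are their probe sets. In Dicer null cells the Prpf8 and Snrnp200 points all lie above 0, from 0.31 to 1.44, whereas in AGO2 null cells single probe sets of Snrnp70, Prpf4b, Srsf7 and Tra2a lie at -0.98 or lower while others of the same gene lie near 0.

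Whether single exons departed from their gene was read from a splicing index, in which the median of all probe sets of the gene is subtracted, sample by sample, from each probe set's log2 value. Of 831 member probe sets of 45 genes that could be tested, 49 in 24 genes differed in AGO2 null cells (28 higher and 21 lower, 5.90%, against 6.03% of 106914 probe sets), 17 in 9 genes differed in Dicer null cells (2.05%, against 6.45%), and 35 in 17 genes differed between the null lines (4.21%, against 5.79%). The members' shares were thus no higher than those of all genes tested. Since the index subtracts the gene, a probe set that does not follow a falling gene has a higher index without any rise of its own. Leaving out AGO2 null replicate 3 left 5 higher and 8 lower in AGO2 null cells.

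The largest fall of the index in AGO2 null cells was at Tra2a probe set 4605529. The probe set itself read 7.80, 7.14 and 7.68 in AGO2 null, 8.52, 8.80 and 8.93 in Dicer null and 8.86, 8.75 and 8.66 in wild-type samples, with AGO2 null samples below all others. The index differed by -1.25 from wild type (SE 0.13, adjusted p = 0.00134) and by -1.15 from Dicer null (adjusted p = 0.00132), while the gene's median differed by 0.03 from wild type without a call, and neither call was lost in any of 13 alternatives. A second Tra2a probe set, 4400079, read 6.30, 4.76 and 6.20 in AGO2 null against 7.41, 7.64 and 7.09 in Dicer null samples, with an index difference of -1.56 (adjusted p = 0.0267) between the null lines, and that call was lost under 3 of 13 alternatives.

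Within Srsf7 the index rose at 9 and fell at 2 of 16 probe sets in AGO2 null cells. The subtracted gene median differed by -0.50 there, and only 1 of the 16 probe sets was itself called higher. Probe set 4360397 read 8.56, 8.64 and 8.84 in AGO2 null, 8.07, 8.36 and 8.07 in Dicer null and 8.23, 7.79 and 8.18 in wild-type samples, above all others in AGO2 null cells. Its own value was 0.62 higher than in wild type (adjusted p = 0.0283) and its index 1.12 higher (SE 0.17, adjusted p = 0.00944). Probe set 5447212 had an index difference of 1.18 (adjusted p = 0.0232), with an own difference of 0.68 that was not called, and its index call was lost without AGO2 null replicate 1 or 3 or wild-type replicate 2 or 3 (adjusted p up to 0.0846). In the same samples Srsf7 probe sets 5129071 and 5453264 fell by 0.98 and 0.96, so parts of the gene moved in opposite directions in AGO2 null cells. None of its 16 probe sets was called in Dicer null cells.

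Other genes had single probe sets that stood apart in AGO2 null cells. Hnrnpk probe set 5059407 read 8.21, 8.11 and 8.52 in AGO2 null against 6.74, 7.10 and 7.48 in wild-type samples (index difference 1.04, SE 0.17, adjusted p = 0.0121). Srsf3 probe set 5477450 read 9.20, 9.10 and 9.59 against 8.56, 7.81 and 8.48 (0.99, SE 0.19, adjusted p = 0.0222), with Dicer null samples between them at 8.73, 8.86 and 8.81. Prpf4b probe set 4450794 read 6.78, 6.56 and 6.40 against 8.26, 7.50 and 8.10 (-1.04, SE 0.19, adjusted p = 0.0172). In all 3 the AGO2 null and wild-type samples did not overlap. The Srsf3 and Prpf4b calls were lost without AGO2 null replicate 3, and the Srsf3 call also without replicate 1.

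Tardbp probe set 5144417 read 8.85, 8.01 and 8.39 in AGO2 null, 9.69, 9.60 and 9.60 in Dicer null and 9.23, 9.39 and 9.41 in wild-type samples, with AGO2 null samples below all others (index difference -1.01 from Dicer null, SE 0.17, adjusted p = 0.0106). At the level of the whole gene Tardbp had not been called, and its 17 probe sets held 2 called higher and 2 called lower in AGO2 null cells.

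In Dicer null cells the largest index difference was that of Hnrnpab probe set 5199575. It read 6.64, 6.54 and 6.37 in AGO2 null, 7.86, 8.22 and 8.31 in Dicer null and 6.61, 5.99 and 6.56 in wild-type samples, so the Dicer null samples stood alone. Its index was 1.43 above wild type (SE 0.20, adjusted p = 0.00361) and AGO2 null cells lay -1.44 from Dicer null (adjusted p = 0.0043). Snrnp70 probe set 5152165 read 6.57, 6.18 and 6.75 in AGO2 null, 6.96, 6.38 and 6.53 in Dicer null and 8.06, 7.63 and 7.98 in wild-type samples, low in both null lines, with an index difference of -0.88 in Dicer null cells (SE 0.15, adjusted p = 0.0108).

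The 3 Hnrnpa3 probe sets 4453476, 5335237 and 4917695 had index differences of 0.78, 0.74 and 0.68 in Dicer null cells out of 41 probe sets, and Hnrnpa2b1 probe set 5232189 had one of 0.55 (adjusted p = 0.00771). The call of 4917695 was lost without any one Dicer null replicate (adjusted p up to 0.101). No position of a probe set is used here, so none of these can be placed in an exon, an intron or an untranslated region.

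**Figure D5:**
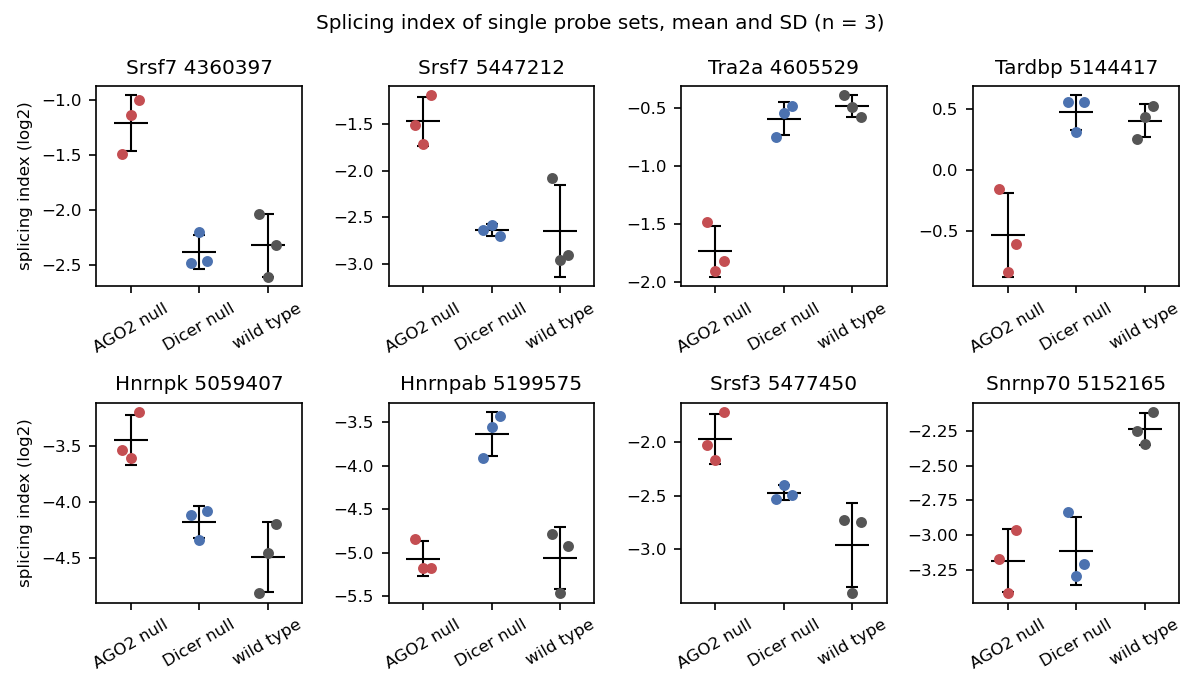
Splicing index (log2, probe set minus the median of its gene) of 8 member probe sets in single samples (points), with the mean and SD (n = 3 per genotype). AGO2 null samples stand apart for the probe sets of Srsf7, Tra2a and Tardbp, Dicer null samples for Hnrnpab 5199575 and wild-type samples for Snrnp70 5152165.

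Other genes of the pathway, listed without the members, are given by their counts, first as deposited. These read against 11.8% of all rows higher and 9.17% lower in AGO2 null cells and 11.2% and 15.7% in Dicer null cells, or against the larger shares of bright rows given above. Of 13 Sm and snRNP proteins, 4 were higher (30.8%) and none lower in AGO2 null cells, with Snrpd1 at 0.86 (adjusted p = 0.000194), and 3 were higher and 3 lower (23.1% each) in Dicer null cells, with Snrnp25 at -0.72. On quantile-normalized values the AGO2 null counts became 2 and 2, so the direction of that list was not kept. Of 45 further U2, tri-snRNP and catalytic factors, 8 were higher (17.8%) and 1 lower (2.22%) in AGO2 null cells, and 12 were higher (26.7%) and 5 lower (11.1%) in Dicer null cells. On quantile-normalized values 3 were higher and 5 lower in AGO2 null cells, which turns that direction, and 16 were higher and 5 lower in Dicer null cells. Examples of rises are the tri-snRNP protein gene Sart1 (0.29 and 0.63), Sf3b4 (0.80 and 0.58) and the U2 recruitment factor gene Smndc1 (0.13, not called, and 0.69). The fall in AGO2 null cells was that of Dhx16, and the falls in Dicer null cells were led by Cwc27 and Sf3b6.

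Of 22 other SR and SR-related proteins, none was higher and 8 were lower (36.4%) in AGO2 null cells, among them Thrap3 (-0.40, adjusted p = 0.00344) and Srek1 (-0.39, adjusted p = 0.00522). In Dicer null cells 3 were higher, with Scaf11 at 0.32 and the speckle protein gene Son at 0.28, and 2 were lower. The AGO2 null counts were 0 and 11 on quantile-normalized and 0 and 5 on centred values, the same direction. Between the null lines 1 was higher (4.55%) and 8 were lower (36.4%) in AGO2 null, Son by -0.52 (adjusted p = 0.000667). All rows gave 16.9% and 9.45% there, and bright rows 28.6% and 14.0%. The list had a median of -0.15 in AGO2 null and 0.00 in Dicer null cells, where the members had 0.12 in each.

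The kinases and phosphatase partners of SR proteins gave 2 lower of 10 in AGO2 null cells, Clk4 at -0.25 and Srpk2 at -0.17, and 1 lower in Dicer null cells, Clk3 at -0.22, where both scalings gave 1 higher and none lower. Of 18 other hnRNP-like proteins, 4 were higher (22.2%) and 3 lower (16.7%) in AGO2 null cells (Pcbp1 0.33, Ewsr1 -0.53). In Dicer null cells 3 were higher and 1 was lower, Pcbp3 at -1.42. On quantile-normalized values the AGO2 null counts were 0 and 5. The exon junction helicase gene Eif4a3 was higher in both lines, at 0.63 and 0.69, among 7 genes of that complex and of nonsense-mediated decay. The SMN complex and its assembly partners gave 2 higher and 1 lower of 16 in AGO2 null cells and 1 higher and 2 lower in Dicer null cells, where the latter became 3 and 2 on quantile-normalized and 4 and 2 on centred values.

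Tissue-specific splicing regulators had far larger single differences than the general factors. Of 24 measured, 5 were higher (20.8%) and 2 lower (8.33%) in AGO2 null cells and 4 were higher and 4 lower (16.7% each) in Dicer null cells. Rbpms, a regulator of smooth muscle exons, was higher by 1.81 and 2.48, Mbnl3 by 1.57 and 0.95, and Khdrbs3 differed by -0.32 and -1.60. The largest difference among the 39 members was 0.94, while Pcbp3 of the hnRNP-like list fell further, at -1.42 in Dicer null cells. The median of the tissue-specific list was 0.01 in each null line as deposited, below the members' 0.12. On quantile-normalized values the list's median in AGO2 null cells was again 0.01, but that of the members no longer lay above it. Proliferation genes gave 3 higher (17.6%) and 4 lower (23.5%) of 17 in AGO2 null cells and 4 higher (23.5%) and 1 lower (5.88%) in Dicer null cells, and housekeeping genes 2 higher and none lower of 9, and 1 higher and 2 lower. On quantile-normalized values the AGO2 null counts were 1 and 6 for proliferation and 1 and 2 for housekeeping genes.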

How the data were processed

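RNA of 9 cultures was hybridised to exon arrays. Both tables deposited by the authors hold log2 values with a column for each sample, 23332 rows for genes and 229581 for exon probe sets. How they corrected, summarised and normalized the intensities is not given in the sources used here. The submitters' processing notes name build mm8. The 6577 rows found in both tables were equal within 1e-04. Values were used as deposited, without a filter. Symbols came from the platform annotation, updated through the RefSeq table of GRCm38.p6 (names only), with 14996 gene-level rows and 209279 probe sets having 1 symbol, 1019 and 4446 several, and 7317 and 15856 none. Rows with several symbols named no gene.

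All tests of differences used limma 3.58.1 under R 4.3.3 (lmFit, contrasts, eBayes without trend) on all 9 samples with group means, separately in each table. Calls needed an adjusted p (Benjamini-Hochberg, over all rows) below 0.05. The difference between the null lines tests whether their differences from wild type differ. Medians over a gene's exon probe sets were fitted in the same way over 16358 genes. The splicing index was limited to genes of 4 or more probe sets whose level reached the median of genes, and to probe sets that reached the 25th percentile, 106914 in all. Scripts were tested on simulated data. Precision is limited by the 3 arrays per genotype, and the values carry no depth.

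The members, the lists, the tests and the markers were chosen with earlier results of these data known. The targeted genes are named with the value of every sample. So are, per comparison, up to 6 called members with the largest rises and 6 with the largest falls. Up to 6 called probe sets with the largest index differences per comparison are named too, some without the values of every sample. Other members are given by values or ranges, and from each other list up to 2 called genes a direction. Genes seen only at the exon level, and single probe sets outside this rule, were named after their values were seen. Replicate numbers were not taken to pair samples, and the labels state no blocks. Same-numbered samples deviated together at r of -0.10 to 0.19, and differently numbered ones at -0.18 to 0.14. Same-numbered AGO2 null and wild-type samples had a positive r throughout, from 0.01 to 0.19, so pairing there stays possible. A fit with replicate blocks is among the alternatives.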

Additional observations from a re-analysis of the deposited data

Results flagged for a closer look

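For 10 of the 39 members the difference from wild type was not the same in the null lines, by the test of AGO2 null minus Dicer null, which equals the difference between their differences from wild type (limma, adjusted p under 0.05 over all rows). The shared wild-type samples drop out of this value. The test called 26.3% of all rows and 42.6% of bright rows, so the members' share of 25.6% was no higher than that of the table. The largest differences were those of Snrnp200 (-0.74) and Srsf9 (0.60), the latter called in opposite directions against wild type. Tri-snRNP and Prp19 genes followed with Prpf8 at -0.47, Prpf3 at -0.34 and Prpf19 at -0.29, and U2 factors with Sf3b3 at -0.28, Sf3b2 at -0.19 and Sf1 at -0.19. Among hnRNP genes Ptbp2 differed by -0.44 and Hnrnpk by 0.24. All 10 had no overlap between AGO2 null and Dicer null samples, but they were picked by this same test, so this adds nothing to their calls. Members that were not called, such as Srsf5 and Sfpq, had no overlap either. The share of all rows without overlap was not counted. The null lines also differ in source, which cannot be told apart from genotype here.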

How the results depend on the processing

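Counts of called members moved with the processing, while no named difference changed sign. Of 504 recomputed values of named members 422 stayed called and 82 lost their call, as did 18 of 234 index values. Prpf8 kept its call in all 3 comparisons under all 18 alternatives, as did Snrnp200, Prpf3 and Sf3b3 in Dicer null cells and Snrnp70, Srsf11 and Prpf4b in AGO2 null cells. Members higher in AGO2 null cells were 6, but 2 after quantile normalization, 13 with an offset of 50, without the rows under the median level, with an intensity trend or with the median over rows of a gene, 2 with only the 6 samples compared and 3 by exon medians. Members higher in Dicer null cells were 11, but 20 after median centring, 17 with the offset or the trend and 7 with a replicate block. Lower ones were 4, but 1 after centring and 1 by exon medians. Between the null lines the 2 higher became 1 after quantile normalization, centring, the replicate block and by exon medians, and the 8 lower became 15 after quantile normalization and 5 by exon medians. Each member had 1 row, above the median level, so leaving out dim rows or taking the median over rows did not alter the members' values. In these settings only the rows fitted and adjusted beside them differed. The cause of the other moves was not tested.

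Probe sets higher in AGO2 null cells were 109 without those below the median level. Probe sets lower in Dicer null cells were 6 after quantile normalization, 17 without dim ones and 6 with the replicate block, and those higher in AGO2 null than in Dicer null cells were 8 and 24 under the first 2. Index calls in AGO2 null cells fell to 16 higher and 13 lower with the replicate block, and lower ones in Dicer null cells were 11 after quantile normalization and 2 with the replicate block. The replicate block changed no other count by over 1.5 times, and replicate numbers may mean nothing beyond a name.

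Leaving out 1 sample at a time gave 3 to 8 members higher and 3 to 5 lower in AGO2 null cells, 5 to 14 and 2 to 4 in Dicer null cells, and 1 to 2 and 5 to 10 between the null lines. The Dicer null count of 11 fell to 5 without any one Dicer null sample and to 7 and 6 without wild-type replicates 1 and 2, the 4 lower to 2 without Dicer null replicate 3, and the AGO2 null count of 6 to 3 without wild-type replicate 2. Probe sets gave 25 to 62 higher and 25 to 36 lower, 117 to 167 and 3 to 14, and 7 to 21 and 87 to 124. The index gave 5 to 27 higher and 8 to 19 lower, 4 to 9 and 2 to 9, and 8 to 22 and 8 to 20, lowest in AGO2 null cells without replicate 3. Fewer samples leave fewer degrees of freedom. No detection measure was used, so dim probe sets may sit at a floor.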
